A study of Mus musculus with 81 samples.

Results

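RLTR1 elements are copies of a mouse gammaretrovirus-like endogenous retrovirus. The loci described here were chosen by name: every locus whose RepeatMasker name is RLTR1, or RLTR1 followed by a letter. This gave 3512 of the 970384 loci measured (0.362%), in 9 of the 680 species, a species being the name given to a kind of repeat. RLTR1B-int, the internal region, had 793 loci. The other 8 species are long terminal repeats (LTRs): RLTR1B with 892 loci, RLTR1C with 695, RLTR1A2_MM with 406, RLTR1D with 305, RLTR1D2_MM with 190, RLTR1E_MM with 86, RLTR1F_Mm with 83 and RLTR1 with 62. RepeatMasker places 3429 of these loci, including RLTR1B and its internal region, in the ERV1 class and the 83 RLTR1F_Mm loci in ERVK, so that the shared name does not stand for a single retroviral class.

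An endogenous retrovirus is the remnant of a retrovirus that integrated into the germline. A complete copy, or provirus, has an internal region between a pair of LTRs that were the same sequence at integration. The first LTR holds the promoter, with RNA synthesis starting downstream of its TATA box, and the last LTR holds the polyadenylation signal, downstream of which the RNA is cut and a poly(A) tail added. Recombination between the LTRs of a copy leaves a solo LTR. In the male germline such copies are silenced by DNA methylation, repressive histone marks and piRNAs, and the methylation is erased in primordial germ cells and set again in fetal prospermatogonia.

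RNA came from testes of E18.5 fetuses of OG2 mice, whose EGFP transgene marks germ cells under control of the Oct4 (Pou5f1) promoter with its distal enhancer. All animals in both groups carry this transgene. Pregnant F0 dams received 50 nM tributyltin (TBT), an organotin compound, or its vehicle DMSO in drinking water, and F1 and F3 male fetuses were examined, F3 being bred without further exposure. EGFP-positive germ cells were sorted into P4 and P5 by side scatter and EGFP-negative testicular somatic cells were taken as P6. There were 62 RNA libraries. In F1, P4 cells had 5 with DMSO and 7 with TBT, P5 cells 4 and 7, and P6 cells 5 and 7, and in F3 each population had 4 and 5. Methylated DNA of P6 cells was measured in 3 DMSO and 4 TBT libraries of F1 and in 5 and 7 of F3. RNA was primed with oligo-dT, and the libraries do not mark strand. Neither separate litters nor a shared animal for P4 and P5 libraries of the same number is given in the labels, so p-values measure the spread between these libraries, which may in part be technical. The F1 germline library names share first numbers (2 among the TBT and 3 among the DMSO libraries) whose meaning the labels do not give, and the tests take the libraries as independent.

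The structure of the members was read first, from the GRCm38 (mm10) genome. The 3512 loci formed 2652 elements when pieces within 500 bases were joined. Of these, 2120 were single LTR pieces with no other RLTR1 locus within 500 bases, 59 had an internal region with an LTR on each side, 103 had an internal region with an LTR on 1 side, 209 were internal pieces alone and 161 were pairs or groups of LTR pieces. Neighbouring repeats of other names were not examined, and some pieces are short fragments. The 2120 are therefore not all shown to be solo LTRs left by recombination. In 14 elements both LTRs were at least 450 bases long, and the identity between the LTRs of an element ranged from 83.2% to 99.6% (median 94.7%). The element at chr4:4340340-4344439 on the minus strand, with a span of 4100 bases and an LTR identity of 98.6%, was taken as the guide, as the one with the highest LTR identity of those whose strand was set. Its first LTR, 510 bases long, served as the reference LTR, on which TATAAA starts at base 256 and ATTAAA, a polyadenylation signal variant, at base 407. Its last 300 bases are shown because the layout of other elements is read against them, with those motifs in capitals.

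RLTR1B reference LTR, chr4:4343930-4344229 (minus strand): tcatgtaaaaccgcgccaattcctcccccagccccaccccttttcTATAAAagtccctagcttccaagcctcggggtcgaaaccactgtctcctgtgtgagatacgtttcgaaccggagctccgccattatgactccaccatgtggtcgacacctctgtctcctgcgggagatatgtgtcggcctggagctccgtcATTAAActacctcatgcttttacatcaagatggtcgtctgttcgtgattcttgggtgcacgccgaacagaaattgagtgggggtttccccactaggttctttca

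Just behind the first LTR, 12 of the 14 elements carried TGGAGG, which was used to set their strand. The junctions of 3 elements are shown with TGGAGG in capitals, since they mark where the internal region begins.
chr4:4343906-4343935 (minus strand): ctttcattTGGAGGtcccaccaagatctgc
chr9:57480806-57480835 (minus strand): ctttcattTGGAGGtcccaccgagatctgc
chr14:44219843-44219872: ctttcattTGGAGGtttgaccgagatctga

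TATAAA, searched on both strands, was present in 419 of 461 RLTR1B LTRs of 490 to 540 bases (90.9%), in 80.9% of RLTR1C, 85.0% of RLTR1A2_MM and 14.5% of RLTR1D LTRs of that length, against 37.9% of all other LTR loci of that length. AATAAA was present in 94.4% of the RLTR1B LTRs, 17.5% of RLTR1C, 21.8% of RLTR1A2_MM and 6.58% of RLTR1D, against 67.5% of the others. On the reference LTR the AATAAA starts at base 9, far from its 3′ end. The median identity to the guide element was 84.6% for RLTR1B and 87.6% for RLTR1B-int, against 81.1% over all oriented members, and 90.5% for the short RLTR1E_MM pieces, whose median length was 77 bases.

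Most elements with an internal region were incomplete. Among 159 elements with an internal region and at least 1 LTR, and with a single strand for the internal region, 14 had both LTRs complete by their extent on the reference LTR (a rule other than the length above), 104 had an LTR on 1 side, 29 had another layout, and 12 had a first LTR without its start together with a last LTR without its end. In 11 of these 12 the alignment placed the start of the first LTR at base 284 to 287 of the reference LTR, downstream of TATAAA, and in the other at base 400. The last LTR ended at base 432 to 434 in all 12, downstream of ATTAAA, and was followed by a run of A of 6 to 41 bases (median 13.5). The 14 elements with complete LTRs had runs of 1 to 5 bases (median 3). This layout was noticed after the loci that differ between P5 and P4 cells had been seen, and it is used below as a description only. The last bases of 5 such elements and of 2 complete ones are shown, with the longest A run in capitals, which on chromosome 14 goes on past the printed bases.
chr11:6247735-6247784: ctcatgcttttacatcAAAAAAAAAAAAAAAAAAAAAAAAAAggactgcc
chr13:70488641-70488690: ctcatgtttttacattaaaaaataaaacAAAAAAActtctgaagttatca
chr14:47787287-47787336 (minus strand): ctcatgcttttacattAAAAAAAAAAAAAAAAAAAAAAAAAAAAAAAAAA
chr17:71324579-71324628: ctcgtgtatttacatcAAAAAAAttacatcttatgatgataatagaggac
chr9:68049838-68049887: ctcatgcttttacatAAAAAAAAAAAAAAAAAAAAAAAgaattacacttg
Complete, chr4:4340310-4340359 (minus strand): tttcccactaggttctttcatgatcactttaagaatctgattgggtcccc
Complete, chr9:57477072-57477121 (minus strand): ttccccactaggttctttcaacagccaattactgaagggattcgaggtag

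The first 5 share the end ctcatg or ctcgtg followed by a short stretch and the A run, whereas the complete LTRs end in ttctttca and pass into sequence without a run. The starts can be compared in the same way: 30 bases of the reference LTR from base 285 on, and the first 30 bases of the same 5 elements.
Reference LTR, chr4:4344126-4344155 (minus strand): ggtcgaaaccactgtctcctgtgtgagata
chr11:6243975-6244004: gcctgcagtcgaaaccactgtcttcgaccc
chr17:71320327-71320356: tcttggtcgaatccactgtctcctgcgtga
chr13:70485216-70485245: gtcaacacctctgtctcctgcgggacatac
chr14:47791021-47791050 (minus strand): agcccagggtcaacacctctgtctcctgtg
chr9:68048044-68048073: ctccgtgattaaactatctcatgtttttac

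The starts on chromosomes 11 and 17 resemble the reference from base 285 on. Those on chromosomes 13 and 14 resemble a similar stretch further on in the reference (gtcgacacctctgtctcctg), and the start on chromosome 9 is the one placed at base 400. The first LTRs of the 12 elements were 112 to 192 bases long, shorter than the reference from base 285 to its end. The placement takes the lowest start and the highest end over all alignments of a piece, which can include both similar stretches. The base at which each begins on the reference is therefore not exact.

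**Figure D1:**
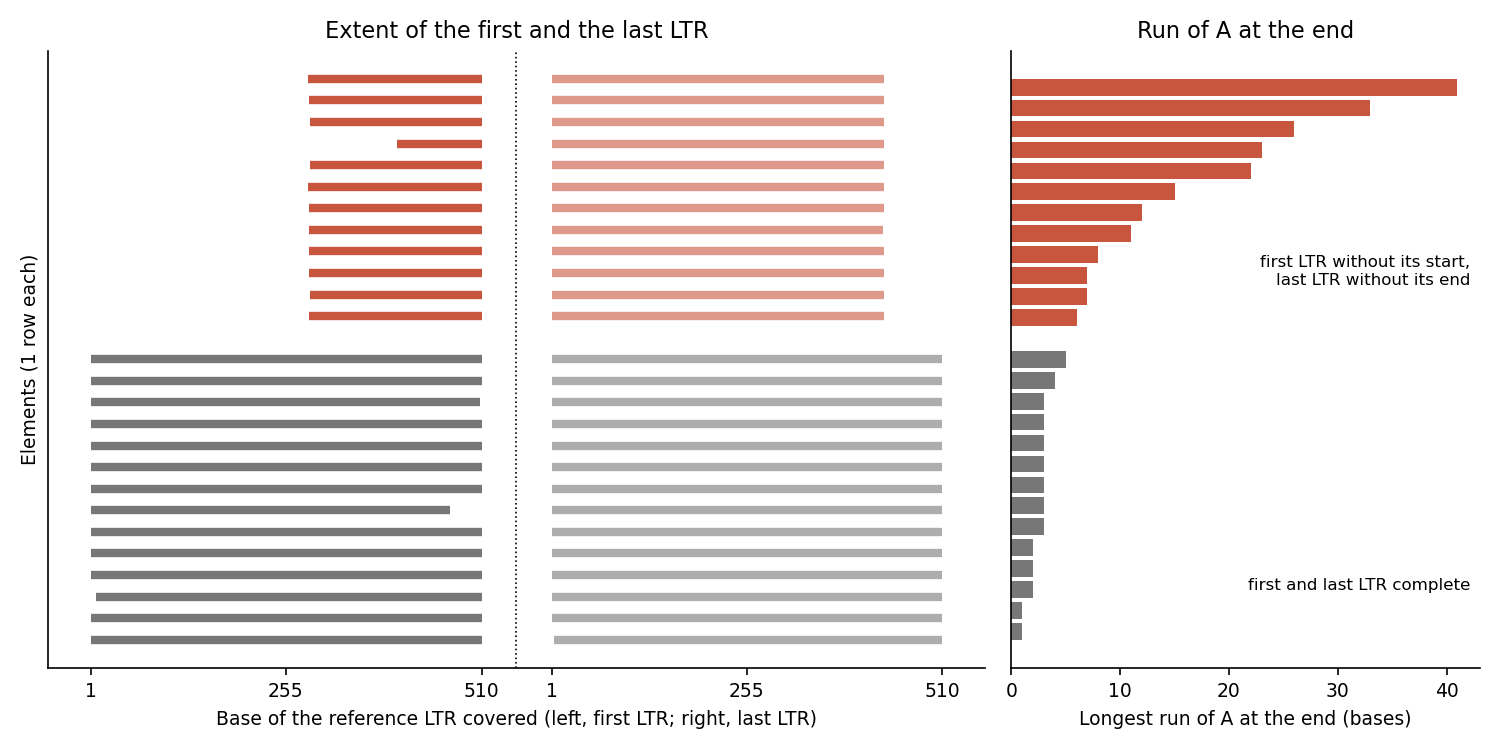
Extent of the first and last LTR on the reference LTR (x axis, base 1 to 510) for the 12 elements with a shortened first and last LTR (red, top) and the 14 elements with complete LTRs (grey, bottom), beside the longest run of A after the last LTR in bases. The red first LTRs are placed from base 284 to 287 on in 11 of 12 and the red last LTRs end at base 432 to 434. Each bar runs from the lowest to the highest aligned base and can be longer than the LTR piece itself.

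The members were more often outside annotated genes than LTR loci in general: 2563 of 3512 (73.0%) were outside genes, 841 in introns and 108 in exons, against 64.5% outside genes for all loci. Of the members in genes that could be oriented, 314 lay on the strand of the gene and 468 on the opposite one, with 2 and 27 for RLTR1F_Mm and 93 and 83 for RLTR1B-int. CpG sites were denser, at 1.85 per 100 bases against 0.871 for other LTR loci, and reached 2.46 for RLTR1B and 2.53 for RLTR1F_Mm, with 1.48 for RLTR1B-int. RNA was found widely but thinly: 2865 loci had a read in at least 1 of the 62 RNA libraries, 9 in every library and 647 in none.

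The values are TMM-scaled CPM (read counts relative to library size), given once per locus and library, and all were whole multiples of 1 read, so reads were recovered. Each of the 4 tables (F1 and F3, germline and somatic) was scaled separately, and reads shared by near-identical copies make single loci less certain than totals. Tests were made within a table and levels across tables are set side by side only, since the scaling differs. Reads at LTR loci per library ranged from 246520 (F3 P5 TBT 5) to 8161548 (F3 P5 DMSO 3). The lists of markers could be read only through LTR loci inside the marker genes. Germ cell markers (11 of 13 genes had such a locus) summed to 12668 to 17528 in F1 P4 DMSO, 9335 to 12389 in P5 DMSO, 14521 to 22338 in P4 TBT, 9271 to 17429 in P5 TBT and 24.2 to 48.3 in F1 P6. Their mean was lower in P5 than in P4 of F1 (10250 against 14893 with DMSO, without overlap, and 11878 against 17646 with TBT), and the part of this in the differences between P5 and P4 was not tested. By contrast, somatic markers (7 of 10 genes) summed to 27.9 to 261 in F1 germ cells and 1147 to 1377 in F1 P6. Endothelial and blood markers (5 of 5) summed to 10.3 to 27.3 in F1 P4, 21.1 to 56.0 in F1 P5 and 45.1 to 152.6 in F1 P6. In F3, the germ markers summed to 141.6 in P5 TBT 5, to 1302 and 2247 in P4 TBT 5 and 9, and to 2469 and 2002 in P5 DMSO 1 and 2, against 7834 to 18546 in the other F3 germline libraries, and their part in the F3 values below was not tested. Among the F1 P6 libraries, TBT 7 and 8 stood apart, with 6.79% and 6.95% of all their reads outside genes and 19% and 20.9% of their RLTR1 reads.

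RLTR1 loci took a small share of the LTR reads, and this share was higher in P5 than in P4. In F1 P4 cells it was 0.192% to 0.220% over the DMSO libraries (median 0.203%) and 0.179% to 0.230% over the TBT libraries (median 0.199%). In F1 P5 cells it was 0.239% to 0.298% (median 0.256%) and 0.253% to 0.378% (median 0.298%), so that every F1 P5 library lay above every F1 P4 library. In F1 P6 cells the medians were 0.197% and 0.210%. F3 P5 cells had the widest range, from 0.304% to 0.791% (median 0.590%) with DMSO and 0.285% to 0.486% (median 0.389%) with TBT, and F3 P4 cells ranged from 0.235% to 0.293% (median 0.260%) and from 0.211% to 0.424% (median 0.225%).

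The species differed in where their RNA was found. Per kilobase of loci, the mean values over the DMSO and TBT libraries of F1 P4, P5 and P6 cells were 0.913, 1.75 and 0.923 for RLTR1B-int, 1.15, 1.43 and 1.39 for RLTR1B, 1.65, 1.53 and 1.13 for RLTR1C and 1.48, 1.55 and 1.98 for RLTR1A2_MM. The RLTR1B-int level per kilobase in F3 was 1.18 in P4, 3.10 in P5 and 0.862 in P6. RLTR1B-int held 23.5% of all RLTR1 values in F1 P4, 35.3% in F1 P5 and 24.9% in F1 P6, and 21.9%, 38.5% and 25.2% in F3.

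The loci with the highest mean over the 6 populations were 5 LTRs, 4 of them inside genes. The RLTR1C LTR in Psma2, a proteasome subunit gene, at chr13:14617444-14617957 ranged from 146 to 187 in F1 P4 DMSO, from 113 to 132 in P5 and from 98 to 109 in P6. The RLTR1C LTR in Supt4a, which encodes a transcription elongation factor, at chr11:87738418-87738921 ranged from 103 to 138, 79.4 to 111 and 21.6 to 33.8. In F1 TBT cells the Psma2 LTR ranged from 67.8 to 164.7 in P5 and from 82.2 to 178.1 in P6, so that these populations overlapped there. The RLTR1D LTR in Parp1, a DNA damage response gene, at chr1:180574214-180574705 ranged from 58.4 to 120, 53.2 to 81.2 and 19.5 to 23.9. The RLTR1B LTR in Ptn, a secreted growth factor gene, at chr6:36735654-36736188 had 97.4 to 291 in P6 and at most 5.67 in germ cells. The fifth, an RLTR1A2_MM LTR at chr2:156830632-156831132, lay 1917 bases from Gm14230 and had 25 to 43.9, 20.8 to 28.2 and 30.9 to 41.8. Its highest values, which lift its mean, were 353 in F3 P4 TBT 9, 188 in F3 P4 TBT 5 and 138 in F3 P5 DMSO 1, all libraries with low germ marker sums. The 10 highest loci held 29.6% of all RLTR1 values in F1 P4 DMSO, 20.1% in P5 and 37.3% in P6, and 12.1% in F3 P5 DMSO.

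Reads in introns cannot be told apart from RNA of the gene around them. Adjoining RLTR1 loci of 1 element were compared where both had a mean of at least 5 reads' worth. In F1 P4 cells the members of 27 of 36 intronic pairs (75%) had values within 10% of each other, against 1 of 7 pairs outside genes (14.3%), and in F1 P5 cells this held for 33 of 55 intronic pairs (60%) and 0 of 42 outside genes. In F3 P5 cells the shares were 32.3% of 62 and 7.46% of 67. RLTR1 reads outside genes made up a median of 14.2% (DMSO) and 13.5% (TBT) of RLTR1 reads in F1 P4, 27.5% and 34.6% in F1 P5, 5.41% and 5.86% in F1 P6, 24.9% and 18% in F3 P4, 53.6% and 43.8% in F3 P5, and 4.06% and 3.84% in F3 P6. The share of all LTR reads outside genes moved the same way: its median was 2.22% and 2.06% in F1 P4, 5.07% and 5.91% in F1 P5, 3.96% and 3.22% in F3 P4 and 16.1% and 11.2% in F3 P5 (DMSO and TBT), and its part in the RLTR1 values was not tested. Since bulk cells were measured, a change in the share of cells of a type and a change in RNA per cell cannot be told apart.

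RLTR1B-int was also summed over its loci outside genes. The 5 F1 P4 DMSO libraries had 73.0, 115, 131, 110 and 156, and the 4 F1 P5 DMSO libraries 341, 338, 410 and 308. With TBT, the 7 F1 P4 libraries ranged from 77 to 285.3 (median 115) and the 7 F1 P5 libraries from 272 to 1020 (median 520), and the highest in both was library 47-4. The P4 and P5 groups did not overlap with DMSO, and with TBT the lowest P5 library was below the highest P4 library. F1 P6 DMSO libraries had 26.9 to 39.3, and the P6 TBT libraries 23.5 to 50.1 except for 184 and 169 in TBT 7 and 8.

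In F3 the same sum was 417, 302, 338 and 256 in the P4 DMSO libraries and 1993, 1813, 1421 and 641 in the P5 DMSO libraries. The TBT libraries had 152, 160, 139, 203 and 215 in P4 and 176, 742, 547, 1110.4 and 1178 in P5, the 176 being library 5, the one with the fewest reads. After scaling, the values of that library at all LTR loci summed to 235832, against 1003940 to 1421890 in the other F3 P5 TBT libraries. RLTR1 loci took 0.486% of its reads, the highest share of that group, so the 176 is low on the scaled values only. F3 P6 cells had 18.46 to 24.03 with DMSO and 15.3 to 19.8 with TBT. RLTR1B LTRs outside genes had means ± SD in F1 of 43.2 ± 5.55 (P4 DMSO), 52.6 ± 36.8 (P4 TBT), 121 ± 30.8 (P5 DMSO), 192 ± 114 (P5 TBT), 7.06 ± 2.72 (P6 DMSO) and 36.8 ± 47.3 (P6 TBT). The P6 TBT mean was carried by TBT 7 and 8 with 98.9 and 112, the other libraries having 3.84 to 15.2.

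**Figure D2:**
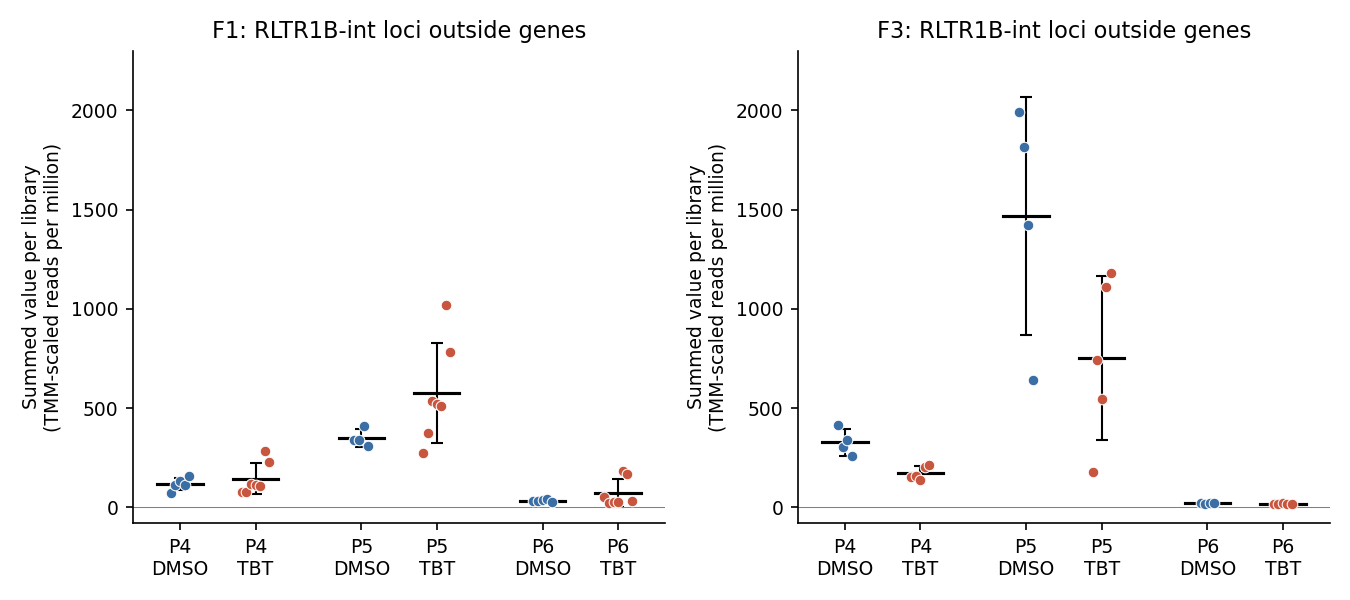
Summed RLTR1B-int values at loci outside genes (y axis, TMM-scaled CPM, linear scale) for each of the 62 RNA libraries by generation, population and exposure, with mean and SD. F1 P5 DMSO libraries (308 to 410) lie above all F1 P4 DMSO libraries (73.0 to 156), and somatic P6 libraries lie lowest except TBT 7 and 8 of F1.

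Species totals were compared between P5 and P4 cells with limma on log2(value + 1 read's worth), with Benjamini-Hochberg adjustment (FDR) over all species. In F1 DMSO cells, RLTR1B-int was higher in P5 by 0.68 ± 0.09 on the log2 scale (SE; adjusted p = 3.95e-05), from 495 ± 53.1 (SD, n = 5) to 796 ± 120 (SD, n = 4). RLTR1B rose by 0.19 ± 0.07 (adjusted p = 0.0436), RLTR1D2_MM by 0.49 ± 0.12 (adjusted p = 0.0036) and RLTR1F_Mm by 0.59 ± 0.20 (adjusted p = 0.0269). The RLTR1D2_MM totals were 44.6, 60.8, 66.3, 61.6 and 54.7 in P4 and 86.3, 85.9, 80.3 and 69.4 in P5, without overlap. Those of RLTR1F_Mm were 12.9, 18.95, 13.6, 28.3 and 20.6 in P4 and 27.5, 25.7, 30.7 and 25.9 in P5, with 1 P4 library inside the P5 range. Thus 4 of 9 RLTR1 species rose and none fell, where 15% of all 666 species rose and 30.2% fell. RLTR1C had a difference of -0.13 (adjusted p = 0.0729), and of +0.71 over its loci outside genes alone (adjusted p = 0.0034), where 74.2% of all 586 species rose. The RLTR1B call was lost without any one of 5 libraries, P4 43-4, 43-5 or 44-1 or P5 43-4 or 44-1, with an adjusted p of up to 0.177, and the RLTR1F_Mm call without P4 43-4 or 44-1 or P5 43-4 or 44-1 (up to 0.0694).

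The same 4 species rose in F1 TBT cells, where the background was 20% higher and 35.8% lower of 664 species. RLTR1B-int rose by 1.03 ± 0.17 (adjusted p = 0.000138), from 525.5 ± 121 (SD, n = 7) to 1088 ± 314 (SD, n = 7), RLTR1F_Mm by 1.15 ± 0.16 (adjusted p = 4.04e-05), RLTR1D2_MM by 0.65 ± 0.12 (adjusted p = 0.000401) and RLTR1B by 0.33 ± 0.14 (adjusted p = 0.0462). The RLTR1B call was lost without any one of 9 libraries, 5 of P4 and 4 of P5 (adjusted p up to 0.0945). For RLTR1F_Mm the 7 P4 libraries had 12.7 to 25.8 and the 7 P5 libraries 28.97 to 49.7, without overlap.

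In F3 DMSO cells RLTR1B-int rose by 1.45 ± 0.26 (adjusted p = 0.00634), from 786 ± 54.5 to 2266 ± 766 (SD, n = 4 each), and RLTR1F_Mm rose by 2.03 ± 0.54 (adjusted p = 0.0368), where 4.07% of 663 species rose and 5.43% fell. The RLTR1F_Mm totals were 26, 20.5, 7.38 and 19.9 in P4 and 153, 74.6, 57.5 and 34.6 in P5, and the call was lost without any one P4 library or P5 DMSO 1 or 2 (adjusted p up to 0.0848). RLTR1D2_MM had +0.74 (adjusted p = 0.106), and +1.03 by edgeR's quasi-likelihood test (adjusted p = 0.0319). With the library number as a block, though the pairing of the F3 DMSO libraries is not certain, 4 species were called, 3 higher and 1 lower (background 8.6% and 20.7%), the last being RLTR1C at -0.60 (adjusted p = 0.0362). Without the block and with every library scaled to the same total, RLTR1C had -0.14 (adjusted p = 0.688) and RLTR1B-int +1.91 (adjusted p = 0.00696). In F3 TBT cells no RLTR1 species was called by limma, and RLTR1B-int had +1.04 ± 0.55 (adjusted p = 1.00). There edgeR's quasi-likelihood test on the recovered reads gave +1.09 (adjusted p = 0.00387), limma over loci outside genes +1.86 (adjusted p = 0.0178, where 15.5% of all 601 species rose), limma with every library scaled to the same total +1.22 (adjusted p = 0.00173), and limma without F3 P5 TBT 5 +1.55 (adjusted p = 0.0282).

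**Figure D3:**
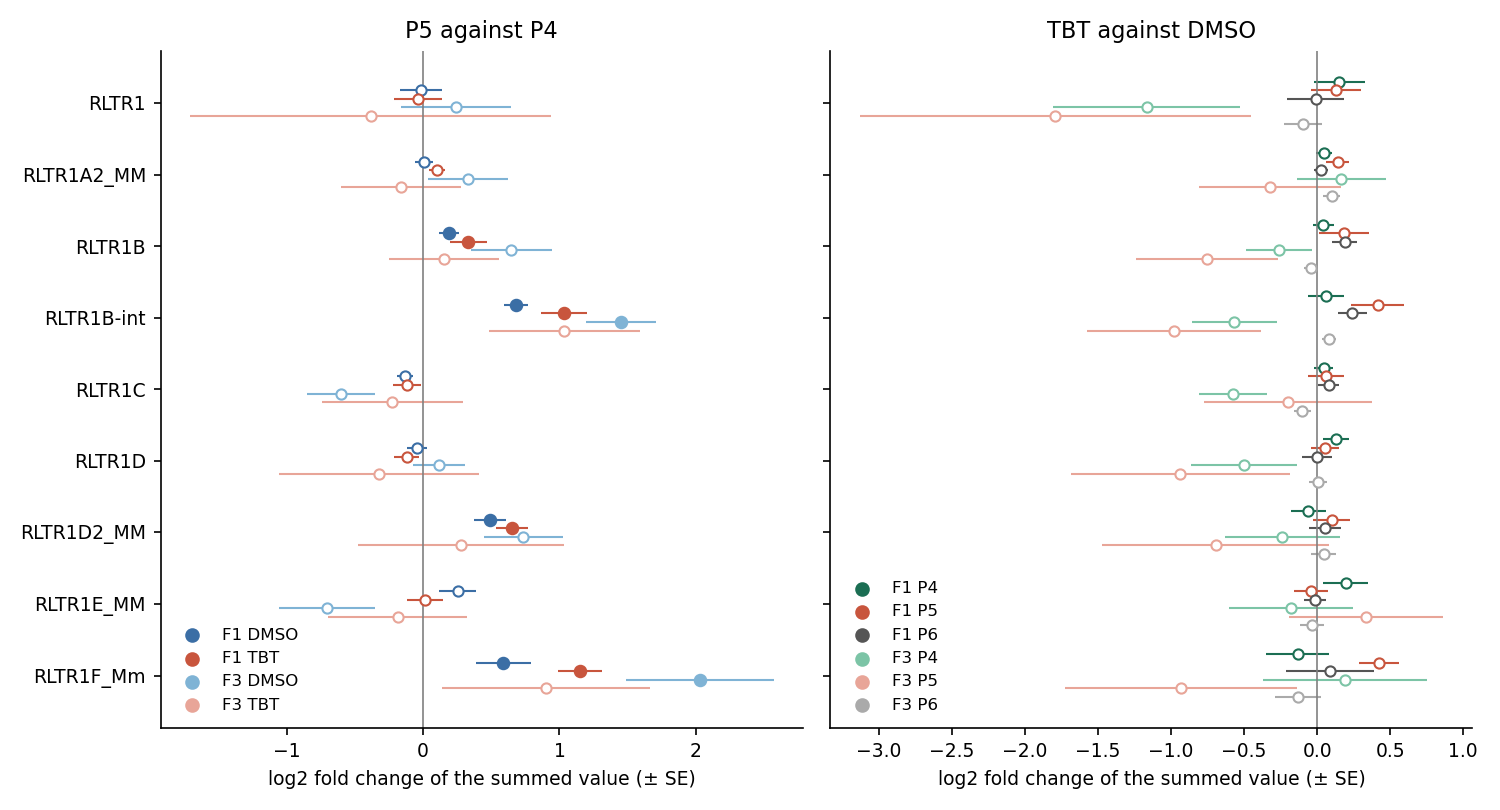
Log2 fold change with SE (x axis) of the 9 RLTR1 species totals, for P5 against P4 cells (left, 4 comparisons) and TBT against DMSO (right, 6 comparisons), with filled points for FDR under 0.05. RLTR1B-int and RLTR1F_Mm have filled points in F1 DMSO, F1 TBT and F3 DMSO on the left, and no point on the right is filled.

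At single loci, limma was run on all loci with a mean of at least 5 reads' worth and members are given from that fit. In F1 DMSO cells 289 members were tested, and 35 were higher in P5 and 8 lower (background 6.44% higher and 5.9% lower of 101234 loci). In F1 TBT cells 357 were tested, and 136 were higher and 26 lower (background 14.6% and 14.8% of 101718). A locus silent in 1 population passed the filter on its mean only through the other, so these counts are a description. With every library scaled to the same total, which moved the median of all loci from -0.10 to 0.03 (DMSO) and 0.06 (TBT), the counts were 39 higher and 5 lower with DMSO (background 7.46% and 2.57%) and 156 higher and 6 lower with TBT (background 17.6% and 6.84%).

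RLTR1B-int loci outside genes were 15 of the 35 loci higher in P5 with DMSO and 64 of the 136 with TBT. In F1 TBT cells 64 of 88 tested RLTR1B-int loci outside genes were higher in P5 (72.7%, median log2 difference 2.38), with 13 of 37 RLTR1 LTRs outside genes (35.1%, median 1.11), beside 41.3% of all 4975 loci outside genes (median 0.95). Inside genes 35 of 76 RLTR1B-int loci were higher and 6 lower, and 24 of 156 LTRs were higher and 20 lower, beside 13.2% higher and 15.5% lower of all loci in genes. In F1 DMSO cells 15 of 58 RLTR1B-int loci outside genes were higher and 1 lower (median 1.86), and 4 of 27 LTRs were higher (median 0.45), beside 15.1% of all loci outside genes (median 0.66). In genes the F1 DMSO counts were 8 of 59 higher for RLTR1B-int and 8 higher and 7 lower of 145 for the LTRs, beside 6.05% higher and 6.1% lower of all 96842 loci in genes.

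By layout, the 12 elements with a shortened first and last LTR are given first. This grouping was made after called loci were seen, and loci near 0 in P4 cells were tested only through P5 cells, so the counts and medians are a description and rank no layout. In F1 TBT cells 14 of their 14 tested loci, in 8 of 8 tested elements, were higher in P5 (median log2 difference 3.42). Of the elements with complete LTRs 19 of 24 loci were higher (median 1.98), of those with an LTR on 1 side 24 of 44 (median 1.22), and of the others 21 of 51 were higher and 9 lower (median 1.02). In F1 DMSO cells the counts were 4 of 13 (median 2.52), 4 of 11 (1.96), 4 of 35 (1.02) and 6 higher and 1 lower of 44 (0.60). Summed over the 37 loci outside genes of 8 shortened elements, of which that at chr14:47787317-47791050 lies partly in a gene, the values were 4.90 ± 2.85 (SD, n = 5) in F1 P4 DMSO, 3.62 ± 3.47 (SD, n = 7) in P4 TBT, 43.2 ± 14.7 (SD, n = 4) in P5 DMSO and 63.9 ± 14.4 (SD, n = 7) in P5 TBT. The 10 complete elements outside genes had 18.8 ± 8.26, 24.3 ± 15.2, 53.1 ± 10.6 and 106 ± 84.2. In F3 DMSO the same loci of the shortened elements had 14.5 ± 9.25 in P4 and 242 ± 107 in P5 (SD, n = 4 each), and the complete ones 78.9 ± 58.8 and 244 ± 170. With TBT the F3 means were 6.58 and 103 for the shortened and 28.2 and 103 for the complete elements. All 4 loci called in F3 DMSO were among the 22 tested of the shortened layout (median 3.67), with 0 of 30 for complete elements (1.98), 0 of 68 with an LTR on 1 side (1.64) and 0 of 66 for the others (1.54). The library method primes on runs of A, and the part of the A runs in these values was not tested.

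In F1 DMSO cells the largest rise was at RLTR1B-int chr17:71321004-71324166, an exon of Gm26561 and AC126942.1, in an element of the shortened layout whose end is printed above. Its values were 0, 0, 0, 0 and 0.457 in P4 and 14.8, 7.94, 20.3 and 4.04 in P5, a log2 difference of 5.16 ± 0.60 (SE; adjusted p = 5.47e-06). With TBT the P4 values were 0 except for 0.398, 6.77 and 0.512, the P5 values 8.26 to 18.6, and the difference 4.77 ± 0.54 (adjusted p = 4.78e-07). RLTR1B-int chr11:6244120-6247285, 1399 bases from Gm11401, had 0.516 and 4 zeros in P4 DMSO and 13.2, 4.67, 6.89 and 5.72 in P5, a difference of 4.65 ± 0.62 (adjusted p = 3.53e-05). Both are shortened elements, and in both the P4 and P5 DMSO libraries did not overlap.

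RLTR1B-int chr15:23825205-23827903, 23837 bases from Gm18582, likewise had 0.516 and 4 zeros in P4 DMSO and 7.17, 6.54, 5.34 and 3.03 in P5, a difference of 4.24 ± 0.66 (adjusted p = 0.000236), against 2.35 with TBT (adjusted p = 0.00197). RLTR1B-int chr16:13058603-13061281, 48403 bases from Ercc4, was among the largest with TBT: 0.213, 0, 2.99, 0, 0, 0 and 1.02 in P4 and 7.78, 7.33, 8.50, 9.36, 18.6, 23.1 and 4.35 in P5. The difference was 4.42 ± 0.51 (adjusted p = 7.17e-07), against 1.17 with DMSO (adjusted p = 0.306).

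Loci lower in P5 lay in genes in 7 of 8 cases with DMSO and in 26 of 26 with TBT, near the share over all lower loci (5903 of 5970 and 14952 of 15070). Their differences were small, with medians of -0.75 and -0.51 on the log2 scale, against 2.51 and 2.44 for the loci that rose. The RLTR1C LTR in Fig4, a phosphoinositide phosphatase gene, at chr10:41296415-41296915 had 3.87, 5.34, 5.08, 8.13 and 3.43 in F1 P4 DMSO and 2.15, 2.80, 1.21 and 2.02 in P5, a log2 difference of -1.24 ± 0.34 (adjusted p = 0.0199), against -0.15 with TBT. That call was lost without P4 DMSO 44-3 (adjusted p = 0.05) or P5 DMSO 44-1 (adjusted p = 0.0637). The RLTR1B LTR in Eipr1 at chr12:28798142-28798734 had 6.70 to 9.29 in P4 and 4.78, 3.03, 3.10 and 2.86 in P5 (-1.13 ± 0.26, adjusted p = 0.00637). The RLTR1D LTR in Stx7, a syntaxin gene, at chr10:24158034-24158590 had 43.8 to 50.1 and 31.3 to 39.5 (-0.45 ± 0.13, adjusted p = 0.0238). With every library scaled to the same total, the Stx7 value was -0.32 and the call was lost (adjusted p = 0.0963), as it was without P5 DMSO 43-4, 43-5 or 44-1 (adjusted p up to 0.0885) and by edgeR's quasi-likelihood test (adjusted p = 0.0892).

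With TBT the lower loci named were the same Stx7 LTR (-0.54 ± 0.12, adjusted p = 0.00176), the RLTR1A2_MM LTR in Plcl2 at chr17:50647879-50648368 (-0.52 ± 0.14, adjusted p = 0.00747) and the RLTR1B LTR in 1110008L16Rik at chr12:55375864-55376377 (-0.75 ± 0.17, adjusted p = 0.00157, with overlapping groups). The Plcl2 call was lost with every library scaled to the same total (-0.35, adjusted p = 0.0697).

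In F3 DMSO cells 594 members were tested, and 4 were higher in P5 and 0 lower (background 0.0638% and 0.0809% of 105038 loci). All 4 lay outside genes, where 0.225% of all 18182 loci were higher and 0.0055% lower. The median difference of the tested members was 1.47, against -0.40 over all loci, a median that moved to 0.03 with every library scaled to the same total, when 5 were called higher and 0 lower (background 0.108% and 0.0828%). Outside genes the median was 1.73 for 317 members and 1.48 for all loci, and in genes 0.65 for 277 members and -0.66 for all loci. With the library number as a block, 13 were called, 12 higher and 1 lower (background 0.248% and 0.379%), while edgeR's quasi-likelihood test on the recovered reads called 0 and limma without P5 DMSO 1 or without P5 DMSO 2 called 0. The 4 loci belong to 2 shortened elements. RLTR1B-int chr14:47787730-47789749, 1219 bases from Gm41148, had 0, 0.489, 0 and 0 in P4 and 33.0, 168, 27.2 and 23.8 in P5, a log2 difference of 6.996 ± 1.04 (adjusted p = 0.0140). The RLTR1B LTR beside it, chr14:47787317-47787729, had no read in the P4 DMSO libraries and 52.2, 29.1, 12.6 and 4.39 in P5, at least 114-fold higher than 3 reads over the group (6.04 ± 1.15 on the fitted log2 scale, adjusted p = 0.0274).

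RLTR1B-int chr9:68048873-68049427, 23159 bases from Gm20745, had 1.41, 0, 0 and 0 in F3 P4 DMSO and 32.5, 30.4, 31.7 and 11.1 in P5 (5.87 ± 1.08, adjusted p = 0.0207). The edgeR quasi-likelihood test gave adjusted p-values of 0.0846, 0.238 and 0.256 for the 3 named loci. Both internal regions were also called in F1: the chr9 internal region by 3.50 with DMSO (adjusted p = 0.00593) and 3.11 with TBT, and the chr14 internal region by 4.41 with TBT (adjusted p = 1.85e-07), with 2.99 in DMSO (adjusted p = 0.0701). In F3 TBT cells 397 members were tested and limma called 0, with 57 above and 0 below at an unadjusted p under 0.05, which 3.77% of all 93498 loci passed. The edgeR quasi-likelihood test called 29 members, where it called 2.88% of all loci higher and 0.51% lower. The members' median difference was 0.89, against 0.36 over all loci. Outside genes the medians were 1.57 for members and 0.93 for all loci, and in genes 0.50 and 0.34.

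TBT against DMSO in F1 P5 cells gave 2 loci higher and 0 lower of 438 members tested (background 0.0111% and 0% of 108446 loci), both RLTR1B-int outside genes, where the background was 0.122% higher of 7350 loci. RLTR1B-int chr1:7739558-7742061, 2504 bases long and 8993 bases from Gm38216, had 0, 0, 0.344 and 2.35 in the DMSO libraries, from 0, 0, 2 and 14 reads. The 7 TBT libraries had 5.4, 3.75, 7.59, 7.95, 15.6, 18.9 and 5.87, from 22 to 75 reads. The groups did not overlap, and the log2 difference was 3.97 ± 0.54 (adjusted p = 0.00648). In P4 cells the DMSO libraries were at 0 and the TBT libraries at 0 except for 0.853, 0.475 and 1.54.

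RLTR1B-int chr13:70486709-70488235, 1527 bases long and 63472 bases from Ice1, had 0.957, 0, 1.21 and 0.336 in the DMSO libraries of F1 P5 cells and 4.60, 4.60, 4.88, 7.77, 3.96, 2.47 and 6.30 in the TBT libraries. The difference was 2.85 ± 0.43 (adjusted p = 0.0273), again without overlap. No read was found in F1 P4 TBT libraries, so that the P5 TBT level was at least 51.9-fold higher than 3 reads over that group (4.43 ± 0.39 on the fitted scale, adjusted p = 1.08e-08). This element has the shortened layout. The element on chromosome 1, at chr1:7739558-7742947 on the minus strand, has a first LTR piece of 69 bases and no last LTR. The alignments of that piece lie between bases 286 and 410 of the reference LTR.

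Both loci passed the filter of 5 reads' worth on their mean through the TBT group, the DMSO means being 0.675 and 0.625, so that the calls are read with that limit. These 2 calls depended on the test. The edgeR quasi-likelihood test on the recovered reads gave an adjusted p of 0.145 for both, and limma voom gave 0.898. With the first number of the library name as a random effect, limma gave 0.00859 and 0.0386. The chromosome 1 call held without any one library (3.57 to 4.74), and the chromosome 13 call was lost without TBT 45-3, 45-4, 45-5, 47-1 or 47-3 (adjusted p up to 0.127). In F3 P5 cells neither locus was called, with log2 differences of -0.11 and -0.25 (adjusted p = 1.00 for both): RLTR1B-int chr1:7739558-7742061 had 0.985, 16.3, 6.92 and 5.08 with DMSO and 0, 13, 7.55, 2.4 and 38.7 with TBT, and RLTR1B-int chr13:70486709-70488235 0.492, 0.857, 29.6 and 13.2 against 0, 6.38, 7.38, 5.21 and 8.20, with the groups overlapping at both.

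**Figure D4:**
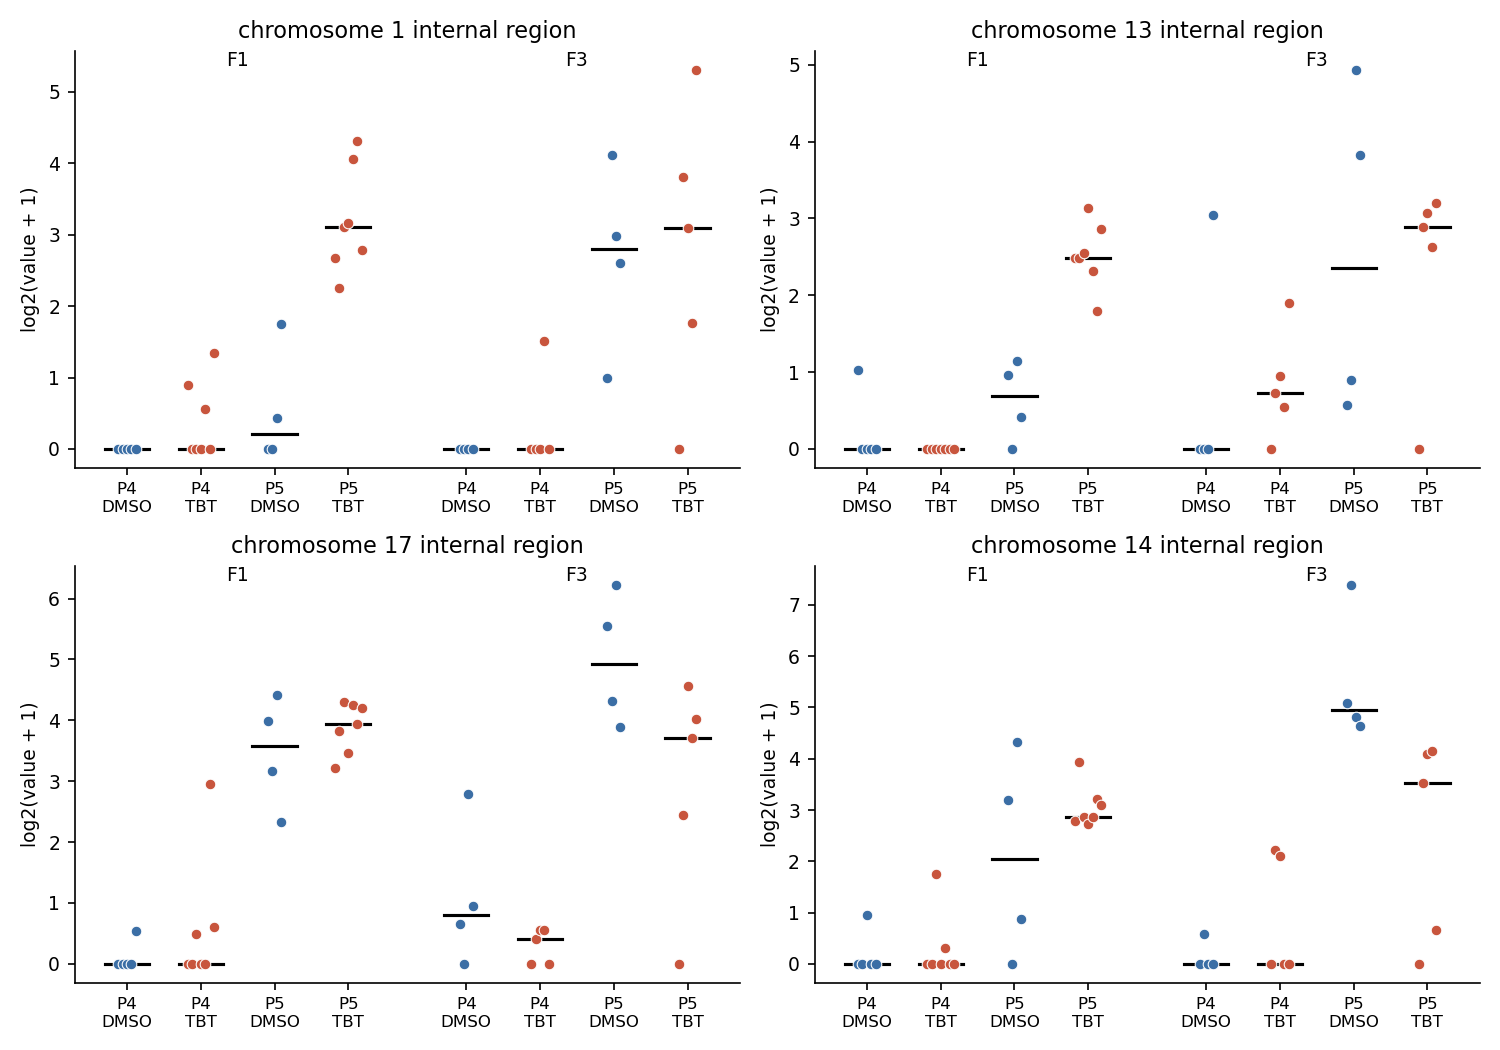
Log2(value + 1) (y axis, TMM-scaled CPM) in each library for the internal regions on chromosomes 1, 13, 17 and 14 in P4 and P5 cells of F1 and F3, by exposure, with the median as a line. The F1 P5 TBT libraries lie above the F1 P5 DMSO libraries on chromosomes 1 and 13, and the F3 groups overlap there.

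No other comparison of exposure called an RLTR1 locus by limma except F3 P6. In F1 P4 cells 219 members were tested with 0 called (6 above and 9 below at an unadjusted p under 0.05), in F1 P6 180 with 0 called (10 and 5), in F3 P4 289 with 0 called (0 and 12) and in F3 P5 643 with 0 called (6 and 17). Over all loci, 7.09%, 3.68%, 1.66% and 1.03% passed that unadjusted threshold in these comparisons. At an unadjusted p under 0.05 the F1 P5 members had 65 above and 2 below, and 6.77% of all loci passed that threshold. The median differences of the members and of all loci were 0.26 and 0.02 in F1 P5, -0.60 and -0.69 in F3 P4 and -0.62 and 0.15 in F3 P5. Outside genes these medians were 0.56 and 0.34, -0.34 and 0.03, and -0.94 and -0.51, in the same order. In genes they were 0.10 and 0.01, -0.71 and -0.74, and -0.29 and 0.25. edgeR's likelihood ratio test, which allows less for the spread between libraries, called 31 in F3 P5 (3 higher, 28 lower), where it called 0.664% of all 112811 loci higher and 2.69% lower.

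In F3 P6 cells 1 of 206 members was called, lower with TBT (background 0.02% higher and 0.0143% lower of 104835 loci). RLTR1B-int chr8:119584247-119586836, in an intron of Dnaaf1, a gene for assembly of ciliary dynein arms, had 2.18, 4.95, 3.22 and 6.30 with DMSO and 1.47, 0.170, 0.643, 0.207 and 0.310 with TBT, a difference of -2.67 ± 0.48 (adjusted p = 0.0386). The groups did not overlap. The locus had 12.8 to 68.2 in F1 germ cells, and the germ markers summed to 24.4, 14.4, 243 and 209 in the 4 DMSO libraries, in the same order, and to 17.4 to 22.8 with TBT. The part of germ cell RNA in this difference was not tested. In F1 P6 cells the DMSO libraries had 2.86, 1.15, 3.30, 3.64 and 2.60 and the TBT libraries 0 to 3.15 (-0.74). The F3 call was lost without any one of DMSO 2, 3 or 4 or TBT 6, 7, 8 or 9 (adjusted p up to 0.158).

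None of the 9 species totals was called between TBT and DMSO in any population. In F1 P5 cells RLTR1B-int had +0.41 ± 0.18 (adjusted p = 0.897) and RLTR1F_Mm +0.43 ± 0.14 (adjusted p = 0.897). In F1 P6 cells RLTR1B had +0.19 ± 0.08 and RLTR1B-int +0.24 ± 0.10 (adjusted p = 0.725), and without TBT 7 and 8 +0.17 ± 0.10 and +0.12 ± 0.07 (adjusted p = 0.744). In F3 the RLTR1B-int values were -0.57 ± 0.29 in P4 (adjusted p = 0.507), -0.98 ± 0.60 in P5 (adjusted p = 0.997) and +0.08 ± 0.05 in P6. Without the libraries of fewest reads they were -0.15 ± 0.09 in P4 (adjusted p = 0.409) and -0.37 ± 0.32 in P5 (adjusted p = 0.714). The exposure effect on RLTR1B-int did not pass the threshold for a difference between P5 and P4 cells, at +0.35 ± 0.24 in F1 (adjusted p = 0.997) and -0.41 ± 0.68 in F3 (adjusted p = 0.999).

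Internal regions of 8 related murine retroviruses, murine leukaemia virus-like, VL30 and GLN elements, were read beside RLTR1B-int. In F1 DMSO, F1 TBT and F3 DMSO, 6 of 8 were higher in P5 than in P4 and 1, MURVY-int, lower (-0.36, -0.43 and -1.16). The list medians were 0.61, 0.77 and 1.23, beside 0.68, 1.03 and 1.45 for RLTR1B-int. MuRRS-int had the largest values, 1.79 ± 0.21, 1.97 ± 0.19 and 2.64 ± 0.34. In F3 TBT 0 of 8 were called, MuRRS-int having +2.35 (adjusted p = 0.0591), and 0 of 8 were called between TBT and DMSO in any population.

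Methylated DNA of P6 cells was counted in 100-base windows with edgeR's quasi-likelihood test, taking windows with at least 50 bases in an RLTR1 locus. Only 96 (F1) and 101 (F3) such windows were present, while the RLTR1B-int loci alone total 561821 bases. The results therefore cover a small part of the RLTR1 sequence and hold for these windows only. Library totals were 701493 to 1913353 counts in F1 and 1105120 to 1556376 in F3. In F1, 51 of 96 RLTR1 windows were tested with 0 called (0 above and 2 below at an unadjusted p under 0.05, which 5.05% of all windows passed), where 0.00579% of all 34559 windows rose and 0.026% fell. In F3, 69 of 101 were tested with 0 called (5 above and 2 below, beside 5.16% of all windows at that threshold), as for all 47563 windows (0% in either direction), and DESeq2 also called 0 in both generations.

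The windows with the lowest p are given as values that did not pass. In F1 they were neighbours in an RLTR1D LTR: chr4:143245001-143245100, with 3 CpG sites, had 17.1 ± 2.43 CPM with DMSO (SD, n = 3) and 10.04 ± 2.42 with TBT (SD, n = 4), a log2 difference of -0.86 (edgeR adjusted p = 0.938), and chr4:143245101-143245200, with 0 CpG sites, had 15.1 ± 5.00 and 8.39 ± 1.88. The counts of the first were 19, 11 and 15 with DMSO and 14, 21, 10 and 13 with TBT. Its sequence is shown, with that of the RLTR1B window with the most CPM, to compare CpG content (CG in capitals).
chr4:143245001-143245100 (RLTR1D): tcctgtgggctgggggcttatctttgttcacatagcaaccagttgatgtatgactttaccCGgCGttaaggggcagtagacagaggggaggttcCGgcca
chr8:4719301-4719400 (RLTR1B): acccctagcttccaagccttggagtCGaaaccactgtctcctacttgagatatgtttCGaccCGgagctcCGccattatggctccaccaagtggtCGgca

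In F3 the windows of lowest p were RLTR1D chr13:69743801-69743900 (-0.43) and RLTR1B-int chr6:24718001-24718100 (+0.32). RLTR1 windows with at least 5 CpG sites had a median of 30.3 (F1, n = 9) and 28.6 (F3, n = 10) CPM, against 11.6 and 13.1 for other windows, those with 4 had 14.3 and 22.4 against 15.0 and 17.7, and those with 0 had 6.16 and 5.76 against 3.40 and 2.14. The other windows with at least 5 sites spread widely, with quartiles of 1.18 and 21.3 in F1 and 0.633 and 24.7 in F3. That class pools all higher numbers of sites, which were not matched to those of the RLTR1 windows.

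**Figure D5:**
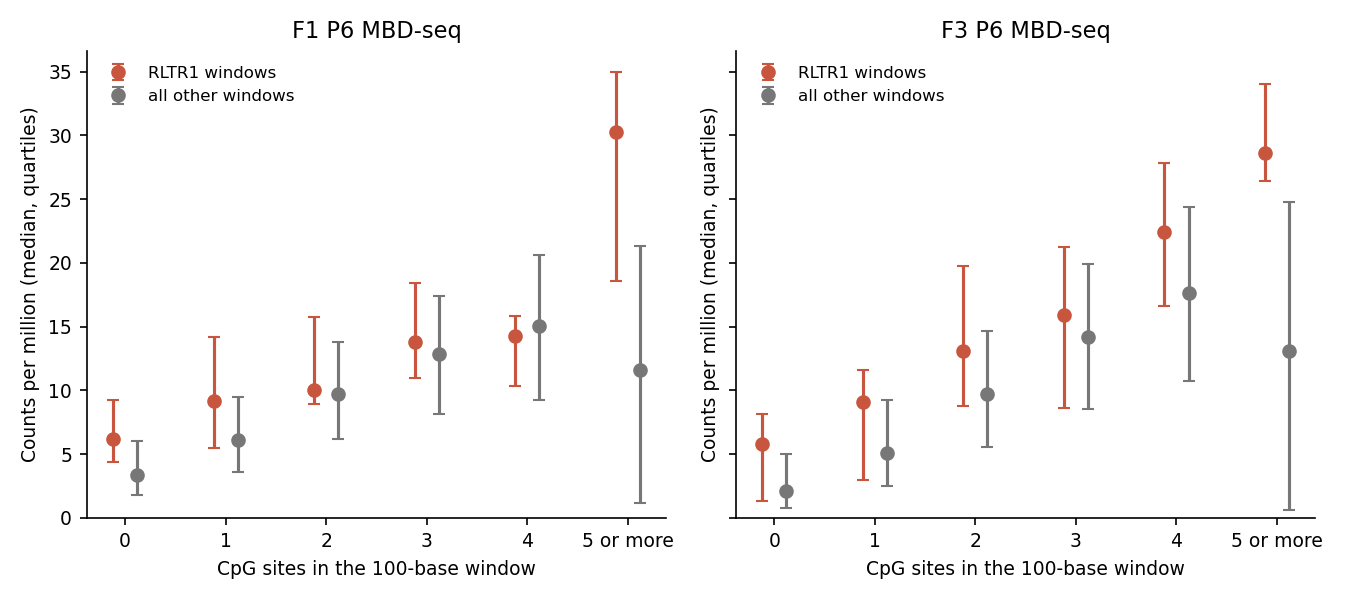
Median CPM with quartiles (y axis) of methylated DNA windows by number of CpG sites (x axis), for RLTR1 windows and other windows, in F1 and F3 P6 cells. At 5 or more CpG sites the RLTR1 medians are 30.3 and 28.6 and those of the other windows 11.6 and 13.1, in a class that pools all higher numbers of sites without matching them.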

How the data were processed

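Tributyltin (TBT) or DMSO exposure, P4, P5 and P6 cells and methylated DNA (MBD) libraries were grouped by the labels, 62 RNA and 19 MBD libraries. The authors aligned RNA reads with STAR to GRCm38, counted them at RepeatMasker LTR loci with a modified ERVmap, and deposited TMM-scaled signal per locus, CPM on the TMM scale. The authors deposited MBD counts per 100-base window, from MethylMiner libraries without normalization for CpG density. Reads at a locus of a multi-copy family may belong to another copy, and how such reads were assigned is not given in the sources used here.

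Whole reads were recovered from each library, 100% of values being whole within 0.001. RNA values were tested as log2(value + the worth of 1 read) with limma 3.58.1 (trended variance) where the mean of a locus reached 5 reads' worth, with Benjamini-Hochberg adjustment over all loci or all species totals and a threshold of 0.05. Each of the 4 tables was fitted alone. MBD windows were tested with edgeR 4.0.16 in R 4.3.3. Elements were joined across gaps of up to 500 bases and placed on the reference LTR with blastn 2.17.0+. An element had the shortened layout where its first LTR began after base 230 and reached base 460, and its last LTR began by base 50 and ended before base 460. Python 3.11.15 with pandas 2.3.3, numpy 2.4.6 and matplotlib 3.10.9 was used for tables and figures. No replicate pair had identical values.

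The members and lists were chosen with earlier results of these data known. Named loci were, per comparison and direction, the 3 called members with the largest difference, those with non-overlapping groups first, the 5 members with the highest mean, and the MBD windows called or, with none called, the 2 of lowest p. P4 and P5 libraries share numbers in the labels, and the deviations of same-numbered libraries from their group means were correlated. All 4 correlations exceeded 0.1 in F3 DMSO only (0.220 to 0.393), where the numbers were therefore taken to pair the libraries. Even there, library 2 correlated better with another number (0.276) than with its own (0.220), so this pairing is not certain. In F1 DMSO they were -0.02 to 0.285, in F1 TBT 0.0916 to 0.502 and in F3 TBT -0.187 to 0.590. Scripts were tested on simulated data with known changes. Alternatives were pseudocounts of 0.25 and 4 reads' worth, no filter, a mean of at least 20, rescaled totals, the quasi-likelihood test and the likelihood ratio test of edgeR on recovered reads, DESeq2 1.42.0 on MBD counts, limma voom, libraries of fewest reads or standing apart left out, loci outside genes, the replicate block and each library left out in turn.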

Additional observations from a re-analysis of the deposited data

Results flagged for a closer look

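Within groups of 4 to 10 libraries, 17 of 143 groups examined held a library far from the others by Dixon's test at the 95% level. That level holds for normally distributed values, and a group of zeros with 1 nonzero library is always flagged. The 17 are therefore not set against a chance rate. Several of them were a few reads beside zeros. RLTR1B-int chr17:71321004-71324166 had 0.457 in F1 P4 DMSO 48-4 against 0 in the others, and 6.77 in F1 P4 TBT 47-4 against 0.512 in the next library. Both RLTR1B-int chr11:6244120-6247285 and RLTR1B-int chr15:23825205-23827903 had 0.516 in F1 P4 DMSO 43-4 against 0. RLTR1B-int chr16:13058603-13061281 had 2.99 in F1 P4 TBT 45-5 against 1.02, and RLTR1B-int chr1:7739558-7742061 had 2.35 in F1 P5 DMSO 48-4 against 0.344. RLTR1B-int chr14:47787730-47789749 had 0.489 in F3 P4 DMSO 2 against 0 and 168 in F3 P5 DMSO 2 against 33.0. RLTR1B-int chr9:68048873-68049427 had 1.41 in F3 P4 DMSO 1 against 0 and 11.1 in F3 P5 DMSO 4, below the next at 30.4. The RLTR1B LTR at chr12:28798142-28798734 had 4.78 in F1 P5 DMSO 43-4 against 3.10.

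Among species totals, F3 P5 TBT 5, the library with the fewest reads, had 0 for RLTR1 (next 31.2) and 21.0 for RLTR1D (next 276). F3 P4 TBT 5 had 42.7 for RLTR1F_Mm (next 20.3), and F3 P6 TBT 5 had 458 for RLTR1B-int (next 499). In F1 P6 cells RLTR1D had 129 in DMSO 1 (next 151) and RLTR1C 453 in TBT 11 (next 372).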

How the results depend on the processing

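Of the results for single species and loci, 366 kept their direction and side of the threshold under the alternatives other than leaving out a library, 28 lost the call, 8 gained it and 4 reversed. Counts of called RLTR1 loci in F1 P5 TBT against DMSO (2) were 1 with a pseudocount of 0.25, 25 without a filter, 1 with a mean of at least 20, 0 by edgeR's quasi-likelihood test and by voom, and 13 by the likelihood ratio test, where all loci had 0.127% higher and 0.0109% lower without a filter and 0.203% and 0.0553% by the likelihood ratio test. For F1 P5 against P4 they were, with DMSO (43), 18 with a mean of at least 20 and 17 by voom (all loci 7.63% higher and 18.4% lower, and 5.3% and 2.19%), and with TBT (162), 273 without a filter and 57 with a mean of at least 20 (all loci 4.79% and 1.97%, and 10.4% and 35.4%). For F3 DMSO P5 against P4 (4) they were 0 with a pseudocount of 0.25, 9 with 4, 16 without a filter, 0 with a mean of at least 20, 0 by the quasi-likelihood test, 71 by the likelihood ratio test, 2 by voom and 13 with the replicate block, where all loci had 0.157% higher and 0.109% lower with 4, 0.0952% and 0.287% without a filter, 3.34% and 0.06% by the likelihood ratio test, 0.0295% and 0.0847% by voom and 0.248% and 0.379% with the block. For F3 TBT P5 against P4 (0) the quasi-likelihood test gave 29 and the likelihood ratio test 49 (all loci 2.88% and 0.51%, and 4.06% and 0.765%), and the latter gave 31 in F3 P5 TBT against DMSO (0; all loci 0.664% and 2.69%). F3 P6 (1) fell to 0 with a pseudocount of 0.25, a mean of at least 20 and voom. Species called in P5 against P4 over loci outside genes were 7 in F1 DMSO (4), 9 in F1 TBT (4), 4 in F3 DMSO (2) and 2 in F3 TBT (0), where 74.2%, 93.7%, 39.3% and 15.5% of all species were higher and 0.171%, 0.17%, 0% and 0% lower. In F3 DMSO they were 4 by the likelihood ratio test (all species 13.1% higher and 7.54% lower) and 4 with the replicate block (8.6% and 20.7%), and in F3 TBT 1 with rescaled totals and by each edgeR test (1.96% to 3.32% higher).

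The reversed values were RLTR1B-int in F1 P4 TBT against DMSO with rescaled totals (-0.012), RLTR1B-int outside genes in F3 P6 (-0.33), and RLTR1C outside genes in P5 against P4 of F1 DMSO (0.71) and F3 DMSO (0.52). The cause was not tested. In the groups not taken as paired, the replicate block gave 58 loci in F1 DMSO, 203 in F1 TBT and 0 in F3 TBT (4, 5 and 0 species, with all loci at 7.13% higher and 8.8% lower, 17% and 21.6%, and 0.0128% and 0%), and there, as in F3 DMSO, not every library correlated best with its own number. Apart from the F3 DMSO counts and RLTR1C total given with them, it changed no call named in the text.

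Leaving out 1 library at a time gave 1 to 5 loci in F1 P5 TBT against DMSO (1 without TBT 45-3, 45-4, 45-5, 47-1 or 47-3, 5 without DMSO 43-5 or 48-4), 23 to 47 in F1 DMSO P5 against P4 (23 without P5 43-4 or 44-1, 25 without P5 43-5), 135 to 172 in F1 TBT, 0 to 18 in F3 DMSO (0 without P5 1 or 2, 18 without P5 3), 0 to 8 in F3 TBT (8 without P5 5) and 0 to 2 in F3 P6 (2 without DMSO 1). Species called ranged from 2 to 4, 3 to 4, 1 to 3 and 0 to 1 in the F1 DMSO, F1 TBT, F3 DMSO and F3 TBT comparisons of P5 with P4. RLTR1B-int ranged from 0.60 to 0.74, 0.92 to 1.12, 1.30 to 1.73 and 0.82 to 1.55 there, and between exposures from -0.022 (without TBT 47-4) to 0.13 in F1 P4, 0.31 to 0.50 in F1 P5, 0.18 to 0.29 in F1 P6, -0.67 to -0.40 in F3 P4, -1.26 to -0.47 in F3 P5 and 0.05 to 0.13 in F3 P6. Without F3 P5 TBT 5 the F3 difference of effects was 0.10 (-0.70 to 0.10), and in F1 it ranged from 0.24 to 0.44. Of the F3 germline libraries, 4 hold 246520 to 1606422 reads.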
